A study of Mus musculus with 4 samples.

Results

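The bone morphogenetic protein (BMP) pathway was followed through 10 named genes in the mouse carotid artery before and after wire injury. The genes were taken by name, from a list drawn up with earlier results of these data known: the ligands Bmp2 and Bmp4, the related growth factor Gdf10 (also known as Bmp3b), the secreted antagonist Grem1, the pseudoreceptor Bambi, the inhibitory Smads Smad6 and Smad7, and the target genes Id1, Id2 and Id3. They are 10 of the 31053 genes in the count tables and 10 of the 20506 that held at least 1 unique molecular identifier (UMI, a tag that marks 1 captured RNA molecule) in the cells kept. Vessels were taken from male C57BL/6 mice aged 11 weeks, uninjured (day 0) or 3, 7 or 14 days after carotid wire injury. The paper describes this injury as deep, with disruption of the internal elastic lamina. At each day several arteries were pooled and digested to single cells, which were sequenced as 1 droplet library per day with 3′ end counting, so all 4 groups share strain, sex, age and method and differ in injury and day. No genetic alteration is given for these animals.

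BMP ligands bind type I and type II receptor kinases at the cell surface, which phosphorylate Smad1, Smad5 and Smad9; these enter the nucleus with Smad4 and switch on target genes, among them the Id genes. Id proteins lack a DNA-binding region and hold basic helix-loop-helix transcription factors in inactive pairs. Smad6 and Smad7 are themselves induced and damp the signal, Grem1 traps ligand outside the cell, and Bambi resembles a type I receptor without its kinase. In arteries the pathway is known for its roles in endothelial cells and in the contractile state of smooth muscle, while Id2 is also known as a factor needed by natural killer (NK) cells and other innate lymphocytes.

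Each Id gene and Smad6 responds to BMP through short DNA elements bound by Smads. The bases just before the start of Id2, Id3 and Smad6 are shown for the motifs that Smads are known to read. They come from a set of RefSeq promoter sequences (build GRCm38.p6) that held 6 of the 10 genes, and Id1 was not among them. Each runs 5′ to 3′ on the gene's strand over the 250 bases before the start. Capitals mark GGCGCC (the same on both strands) and GTCT, which reads AGAC on the other strand. The motifs share no letters with each other in these windows. The windows are chr12:25096093-25096342 on the minus strand for Id2, chr4:136143572-136143821 on the plus strand for Id3 and chr9:64022060-64022309 on the minus strand for Smad6.
Id2: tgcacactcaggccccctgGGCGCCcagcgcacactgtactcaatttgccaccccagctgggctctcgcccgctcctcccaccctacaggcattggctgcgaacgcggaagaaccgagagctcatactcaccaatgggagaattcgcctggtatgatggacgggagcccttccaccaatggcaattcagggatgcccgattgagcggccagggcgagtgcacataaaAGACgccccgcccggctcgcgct
Id3: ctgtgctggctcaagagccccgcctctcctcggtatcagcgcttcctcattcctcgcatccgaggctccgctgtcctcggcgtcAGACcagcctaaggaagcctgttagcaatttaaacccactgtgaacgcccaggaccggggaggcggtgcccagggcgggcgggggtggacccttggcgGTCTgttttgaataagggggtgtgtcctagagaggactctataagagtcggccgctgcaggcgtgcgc
Smad6: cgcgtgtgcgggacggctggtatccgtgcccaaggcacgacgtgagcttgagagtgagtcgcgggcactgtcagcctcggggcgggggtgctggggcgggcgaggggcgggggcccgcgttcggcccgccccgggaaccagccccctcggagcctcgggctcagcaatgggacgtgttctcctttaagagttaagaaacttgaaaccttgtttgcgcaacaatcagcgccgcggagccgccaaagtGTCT
The Id2 window held 1 GGCGCC, which began 231 bases before the start, and 1 GTCT (as AGAC) at 23 bases. The Id3 window held no GGCGCC and 2 GTCT motifs, at 166 and 68 bases, and the Smad6 window held no GGCGCC and 1 GTCT at 4 bases. GGCGCC was in 9.54% of the 27025 windows of the same length and GTCT in 83.0%, so a GTCT match was the usual state of such a window. The matches describe letters and not bound sites, and nothing in these data measured binding. Bases further from the start were not searched, so a window without a match says nothing about elements elsewhere.

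The 4 libraries held 333, 1689, 3001 and 1138 cell barcodes at day 0, 3, 7 and 14, with 2672722, 18989081, 27973418 and 13329564 UMIs. Before any level was computed, 217 barcodes were found in 2 libraries each. In 214 of these pairs the deeper copy had at least 10 times the UMIs of the other (18.2 to 181 times), always between day 0 and day 3 or between day 7 and day 14. The shallower copies (48 at day 0, 104 at day 3, 62 at day 14) were left out, and with them kept, the 21 differences between days past 2-fold in the monocyte/macrophage-like class and the fibroblast-like, endothelial-like and smooth muscle-like classes all stayed past it. The 5412 cells kept included 225, 108, 194 and 517 cells of the fibroblast-like class at day 0, 3, 7 and 14. The smooth muscle-like class held 12, 96, 69 and 77 cells, the endothelial-like class 6, 40, 55 and 18 and the monocyte/macrophage-like class 4, 517, 940 and 196. Fibroblast-like is therefore the class in which day 0 could be compared, and day 3 was the reference in the others. Groups of a class and day with fewer than 20 cells are not described. In the fibroblast-like class the 10 fibroblast markers summed to between 37034 and 67464 CPM (counts per 1e+06 UMIs of the class) at each day, with endothelial markers at 13.8 to 71.9 CPM and monocyte/macrophage markers at 14.9 to 53.6 CPM. Smooth muscle markers summed to 510, 413, 1482 and 544 CPM in that class at day 0, 3, 7 and 14; their part in the levels below was not tested.

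A level below is the gene's UMIs summed over the cells of a class and day, in CPM. With 1 library per day there was no test over samples, and a difference between days cannot be told apart from one between libraries. Intervals are exact at 95%, cover counting error only and take UMIs as independent, which UMIs from 1 cell are not. A gene was counted as higher or lower when the log2 ratio of the 2 levels, each with 10 CPM added, was at least 1 (2-fold), among genes with 20 or more UMIs in both sums together; plain ratios are given without the addition.

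In fibroblast-like cells, Id1, Id3, Bmp2 and Bmp4 were at least 2-fold lower at day 3 than at day 0. Id2 and Gdf10 were lower but short of 2-fold. By day 14 Bmp4 alone was at least 2-fold below its day 0 level. Id1 and Bmp2 were below theirs and Id2, Id3 and Gdf10 above theirs, all short of 2-fold. Of the 9 members that entered at day 3, 4 were at least 2-fold lower (Id1, Id3, Bmp2 and Bmp4) and 0 higher, where 4.12% and 3.42% of all 10676 genes tested were lower and higher. At day 7, 3 of 9 were lower (Gdf10, Bmp2 and Bmp4) and 0 higher, against 3.26% and 3.9% of genes. At day 14, 1 of 10 was lower (Bmp4) and 0 higher, against 1.57% and 2.48%. The median log2 ratio of the members was -0.98, -0.91 and 0.11 at day 3, 7 and 14, and that of all genes tested was -0.08, -0.02 and -0.01.

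**Figure D1:**
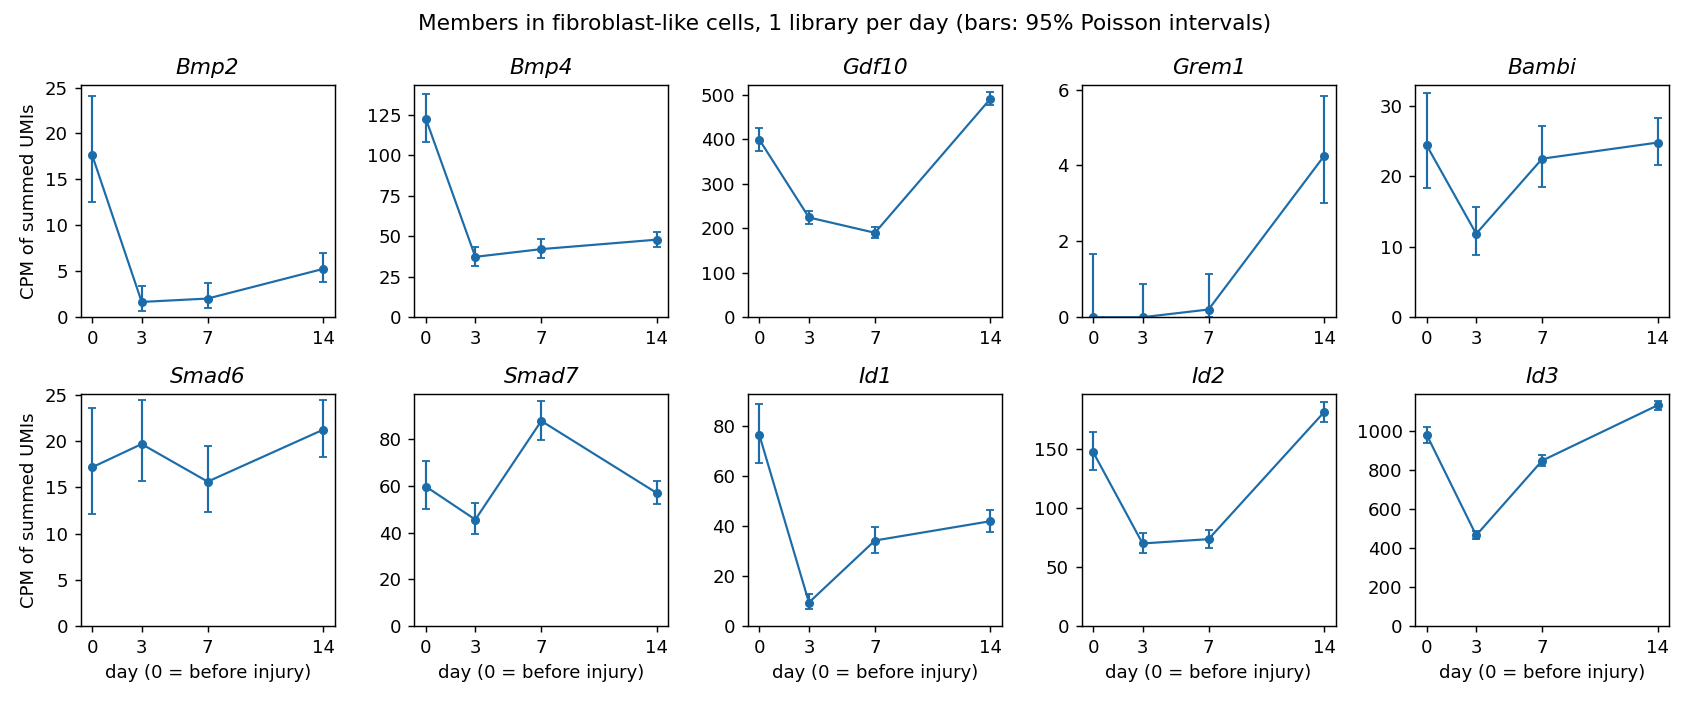
Level of each of the 10 genes in fibroblast-like cells (CPM of summed UMIs, vertical axis from 0) at day 0, 3, 7 and 14 after injury (horizontal axis). Points are 1 library each and bars are exact 95% Poisson intervals; Id1 is at 76.4 CPM at day 0 and 9.49 at day 3, and Bmp4 stays below 50 CPM at every day after injury.

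Among the ligands, Bmp4, which is made by vessel wall cells and signals through the type I BMP receptors, was at 123 CPM (95% interval 108 to 138, 271 UMIs) before injury and 37.3, 42.0 and 47.9 CPM at day 3, 7 and 14. All 3 days after injury were below day 0 with intervals that do not overlap it, and the ratio to day 0 was 0.304 (0.248 to 0.371) at day 3, 0.343 (0.285 to 0.412) at day 7 and 0.391 (0.335 to 0.456) at day 14. The 3 days after injury were closer to one another than to day 0. Bmp2, which signals through the same receptors, was at 17.6 CPM on 39 UMIs at day 0, of which 10 came from 1 cell. It was at 1.66 CPM (7 UMIs), 2.03 CPM (10 UMIs) and 5.26 CPM (47 UMIs) at day 3, 7 and 14. Its ratio to day 0 was 0.0942 (0.0355 to 0.213) at day 3 and 0.298 (0.191 to 0.468) at day 14, and each of the later values rests on few molecules.

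Gdf10, a relative of the BMPs that signals through other type I receptors, took a different course from Bmp4. It was at 398, 224, 190 and 491 CPM on the 4 days, with ratios to day 0 of 0.562 (0.512 to 0.617, log2 -0.80), 0.476 (0.434 to 0.522) and 1.23 (1.15 to 1.32). It was thus lowest at day 7 and above day 0 at day 14, when Bmp4 was still below its own. The day 7 value lay close to 2-fold (log2 -1.03) and was past it in 5 of 11 alternatives, which ranged from -1.07 to -0.55. At day 7, 55.7% of fibroblast-like cells held a Gdf10 UMI (median depth 21161 UMIs) and 2.13% of monocyte/macrophage-like cells did (median depth 8742 UMIs). With each cell thinned to 1000 UMIs the shares were 17.1% (exact binomial interval 12.01 to 23.3) and 0.11% (0.0028 to 0.61).

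Grem1, which binds BMP2, BMP4 and BMP7 outside the cell, was nearly undetected. No UMI was seen in fibroblast-like cells at day 0 or day 3, which allows up to 1.36 and 0.712 CPM (3 counts of each sum), and 1 UMI was seen at day 7. At day 14 there were 38 UMIs, 4.25 CPM (3.01 to 5.83), in 9 of 517 cells. These UMIs came from few cells: 1 cell held 21 of the 38, and 8 of the 9 cells lay in a single sub-cluster described below. Bambi, which takes the place of a type I receptor in the complex without signalling on, was at 24.4, 11.9, 22.5 and 24.8 CPM at day 0, 3, 7 and 14. Only the day 3 level stood apart, with a ratio to day 0 of 0.486 (0.324 to 0.727), which did not pass 2-fold with 10 CPM added (log2 -0.65).

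Neither inhibitory Smad was past 2-fold at any day. Smad6, which competes with Smad4 for Smad1, was at 17.2, 19.7, 15.6 and 21.2 CPM, and its ratio to day 0 had an interval spanning 1 at all 3 days. Smad7, which brings ubiquitin ligases to both BMP and TGF-β receptors, was at 59.7, 45.6, 87.7 and 56.9 CPM. It was highest at day 7 (ratio 1.47, 1.21 to 1.80, log2 0.49). That day 7 difference was past 2-fold without cells over 20000 UMIs (log2 1.04) and with CPM averaged over cells (log2 1.28).

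Id1 and Id3 were lowest at day 3, and Id2 was low at both day 3 and day 7. Id1 was at 76.4 CPM (169 UMIs) at day 0 and 9.49 CPM (40 UMIs, 12 of them in 1 cell) at day 3, and at 34.3 and 42.0 CPM on the later days. Its ratio to day 0 was 0.124 (0.0857 to 0.176) at day 3 and 0.550 (0.458 to 0.664, log2 -0.73) at day 14. With CPM averaged over cells the day 14 level was close to day 0 (log2 -0.09). Id3 was at 981, 466, 848 and 1132 CPM, with ratios to day 0 of 0.475 (0.447 to 0.505), 0.865 (0.821 to 0.912) and 1.15 (1.10 to 1.21). Id2 was at 148, 70.2, 73.9 and 182 CPM, with ratios to day 0 of 0.475 (0.404 to 0.558) at day 3 and 0.4997 (0.429 to 0.582) at day 7, which do not differ beyond counting error. With 10 CPM added, the Id2 differences at day 3 and day 7 were short of 2-fold (log2 -0.98 and -0.91). At day 14 Id2 and Id3 were above their day 0 levels, both short of 2-fold.

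Depth and sub-cluster make-up differed between these days and move with the levels. The median fibroblast-like cell had 8553, 33062, 21161 and 18231 UMIs at day 0, 3, 7 and 14, and cells with more than 20000 UMIs held 23.5% of the class's UMIs at day 0 and 93.6% at day 3. Without such cells Id1 was at 76.3 CPM at day 0 and 18.5 at day 3 on 5 UMIs, still past 2-fold (log2 -1.60), as was Bmp2 (log2 -1.41). Id3 (996 and 614 CPM, log2 -0.69), Bmp4 at day 3 (121 and 66.6 CPM, log2 -0.78) and day 14 (74.2 CPM, log2 -0.64), Bmp2 at day 7 (log2 -0.86) and Gdf10 at day 7 (log2 -0.55) kept their sign and were short of 2-fold, while Bmp4 at day 7 stayed past it (log2 -1.43). Id2 and Gdf10 were then close to day 0 at day 3, Id2 at 136 and 133 CPM (log2 -0.03) and Gdf10 at 435 and 410 CPM (log2 -0.08). Id2 at day 7 was at 113 CPM (log2 -0.25), and Id1 at day 14 was at 59.7 CPM (log2 -0.31). With such cells left out, 7.0% of all genes were at least 2-fold lower and 3.02% higher at day 3. Most fibroblast-like cells of day 0 and of day 3 lay in different sub-clusters, as given below.

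Genes of the same pathway outside the 10 moved in both directions. Of 46 further pathway genes, 31, 34 and 36 entered in fibroblast-like cells at day 3, 7 and 14, of which 3, 4 and 3 were at least 2-fold higher and 3, 2 and 1 lower. None of the 10 receptor genes was past 2-fold at any of the 3 days. Tmem100, an endothelial and mesenchymal gene known to depend on BMP signalling, was at 180, 48.2, 57.6 and 142 CPM on the 4 days (log2 -1.71 at day 3), low at the days at which Id2 was low. Among secreted modulators, Chrdl1, a chordin-like BMP antagonist, was at 56.1, 16.1, 26.6 and 44.7 CPM (log2 -1.34 at day 3). Fstl1, a follistatin-like glycoprotein, was at 1208, 3079, 3775 and 2182 CPM (log2 1.64 at day 7), and Fstl3, which binds activins, was at 106, 95.9, 53.4 and 27.3 CPM (log2 -1.64 at day 14).

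Immediate early genes, which are also switched on by tissue digestion, changed over the same days. Of 10 such genes 1, 1 and 6 were at least 2-fold higher in fibroblast-like cells at day 3, 7 and 14 and 0 lower, and their summed level was 4732, 4753, 7196 and 10119 CPM at day 0, 3, 7 and 14. Fos was at 605, 536, 1001 and 2073 CPM, Fosb at 95.9, 145, 162 and 299 CPM and Atf3, a stress-induced factor, at 29.8, 156, 171 and 257 CPM. At day 3, when Id1 and Id3 were lowest, the summed level was close to day 0. Their part in the levels of the Id genes was not tested.

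Within fibroblast-like cells, the members also differed by sub-cluster. The cells of the 3 non-immune classes (fibroblast-like, endothelial-like, smooth muscle-like) were clustered again with all BMP pathway genes left out of the genes used, which gave 9 sub-clusters (N0 to N8). N4 (158 cells, led by AI507597 and Lamc3) held 124 cells of day 0 and 28 of day 14. N6 (134 cells, led by Saa3 and Cxcl5) held 84 cells of day 3 and 43 of day 7. N0 (232 cells, led by Rgs5 and Eln) and N1 (209 cells, led by C1qtnf3 and Cilp) were mostly of day 7 and day 14, with 188 of the N1 cells from day 14. N7 (123 cells, led by Igfbp5 and Sema3c) held 22 cells of day 0 and 91 of day 14, and N3 (186 cells, led by C7 and Rbp4) was shallow, with a median of 2513 UMIs, and held 75, 15, 23 and 73 cells at day 0, 3, 7 and 14. A sub-cluster that is mostly 1 library cannot be told apart from that library, and levels by sub-cluster come from 1 clustering, on which no alternative was run.

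**Figure D2:**
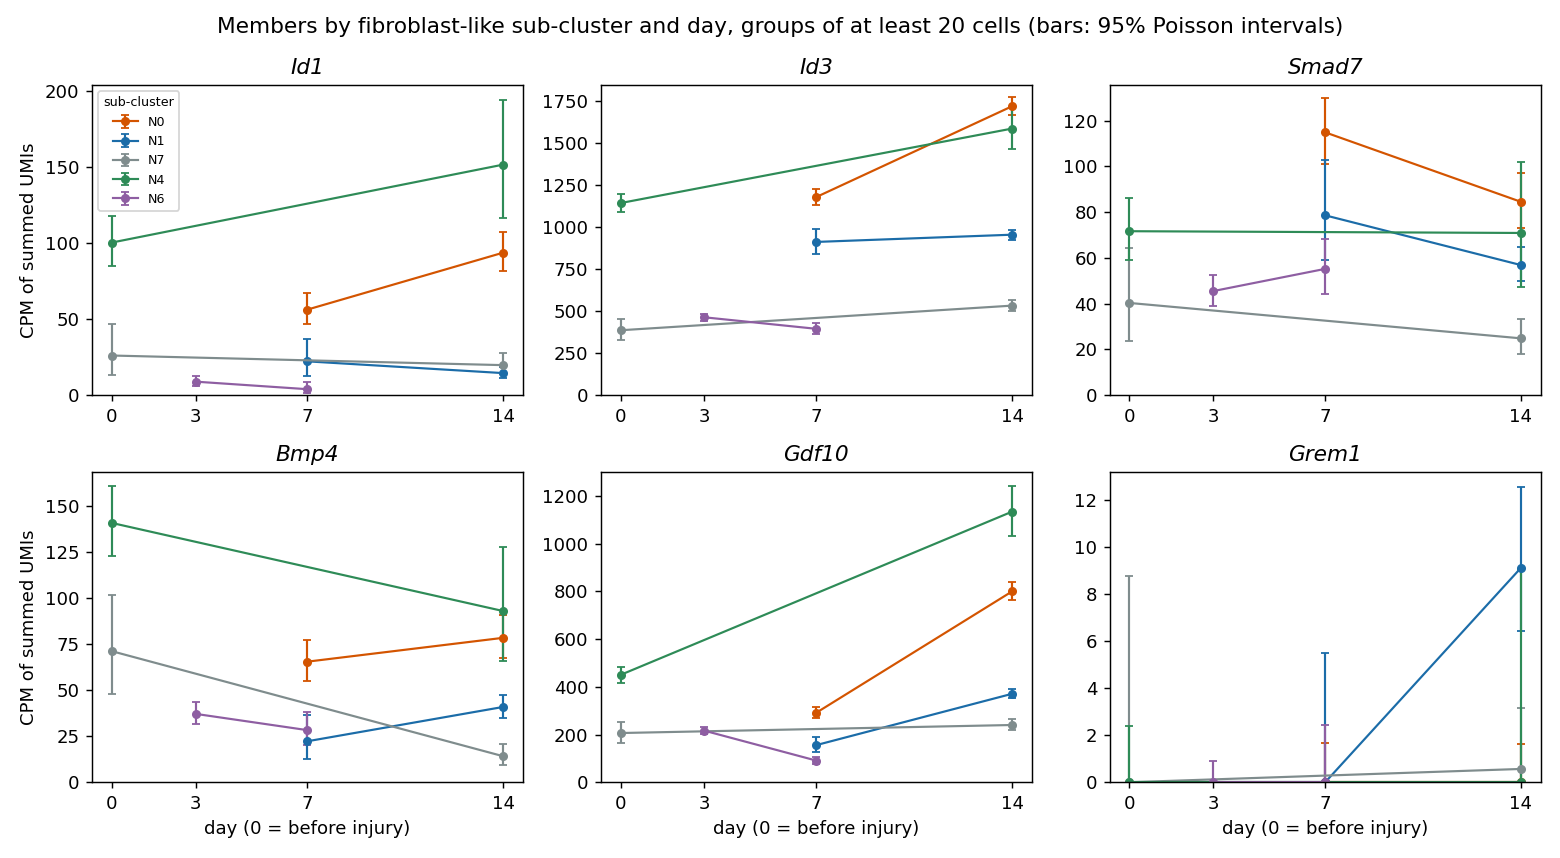
Levels of Id1, Id3, Smad7, Bmp4, Gdf10 and Grem1 (CPM of summed UMIs, vertical axes from 0) by day (horizontal axis) in 5 fibroblast-like sub-clusters, for groups of at least 20 cells. Points are sums over the cells of 1 library, bars are exact 95% Poisson intervals and lines join days of the same sub-cluster; at day 14 Id1 is at 152 CPM in N4 and 93.7 in N0 but 14.5 in N1 and 19.8 in N7.

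Id1 differed between sub-clusters of the same library. At day 14 it was at 152 CPM in N4, 93.7 in N0, 19.8 in N7 and 14.5 in N1, and the N0 to N1 ratio was 6.45 (4.82 to 8.76). Both levels were read in the day 14 library, and the cause of this difference was not tested. Id3 was likewise higher in N4 and N0 than in N7 and N1, at 1587, 1719, 533 and 955 CPM in N4, N0, N7 and N1, with an N0 to N1 ratio of 1.80 (1.72 to 1.88). Bambi (2.81, 2.06 to 3.86), Smad6 (2.27, 1.59 to 3.26), Gdf10 (2.16, 2.01 to 2.31), Id2 (2.13, 1.89 to 2.40), Bmp4 (1.92, 1.54 to 2.38) and Smad7 (1.49, 1.22 to 1.81) were also higher in N0 than in N1. The share of all genes that differed between N0 and N1 is not given here, so these ratios do not set the members apart from other genes. The immediate early genes summed to 13500 CPM in N0 and 9847 in N1 at day 14, and smooth muscle markers to 910 and 543 CPM.

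Grem1 ran the other way. It held 37 UMIs in 8 of 188 N1 cells at day 14 and none in 132 N0 cells, in which 3 counts would be 1.31 CPM. In N1 its level was 9.11 CPM, with 21 of the 37 UMIs in 1 cell.

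Within sub-clusters found at both day 0 and day 14, Bmp4 was lower at day 14 in each, while Id1 was not lower beyond counting error in any. In N4, Bmp4 was at 141 CPM at day 0 and 92.9 at day 14 (ratio 0.660, 0.455 to 0.935). In N7 it was at 71.1 and 14.1 CPM (ratio 0.198, 0.112 to 0.349), and in N3 at 111 and 54.8 CPM (ratio 0.493, 0.249 to 0.963); with 10 CPM added, N7 alone was past 2-fold. Id1 was at 100 and 152 CPM in N4 (ratio 1.51, 1.11 to 2.04), 26.1 and 19.8 CPM in N7 (ratio 0.758, 0.376 to 1.65) and 20.2 and 24.4 CPM in N3 (ratio 1.205, 0.323 to 5.47). The N7 and N3 intervals span both 1 and the ratio of 0.550 over the whole class. In N4 alone Id1 was higher at day 14 than at day 0 beyond counting error, and the day 14 level rests on 28 cells. Id3 was higher at day 14 in N4 (1.39, 1.27 to 1.52), N7 (1.38, 1.17 to 1.64) and N3 (1.61, 1.38 to 1.90). Gdf10 was at 450 and 1134 CPM in N4 (ratio 2.52, 2.24 to 2.84), while its intervals in N7 and N3 span 1. Bmp2 in N7 was at 56.9 CPM on 24 UMIs and 10.2 CPM on 18 UMIs (ratio 0.179, 0.0913 to 0.343).

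No sub-cluster with fibroblast-like cells held 20 cells at both day 0 and day 3, so the day 3 levels could not be compared with day 0 within one. N6, which held most of the day 3 fibroblast-like cells, had Id1 at 8.90 CPM, Id3 at 463 CPM, Bmp4 at 37.1 CPM and Gdf10 at 216 CPM at day 3. At day 7, still in N6, Id1 was at 3.94 CPM, Id3 at 395 CPM and Gdf10 at 90.7 CPM, while N0 cells of the same day 7 library had Id1 at 56.3 CPM and Id3 at 1179 CPM. Low Id1 was therefore seen in N6 at both of its days. The median N6 cell had 39281 UMIs.

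**Figure D3:**
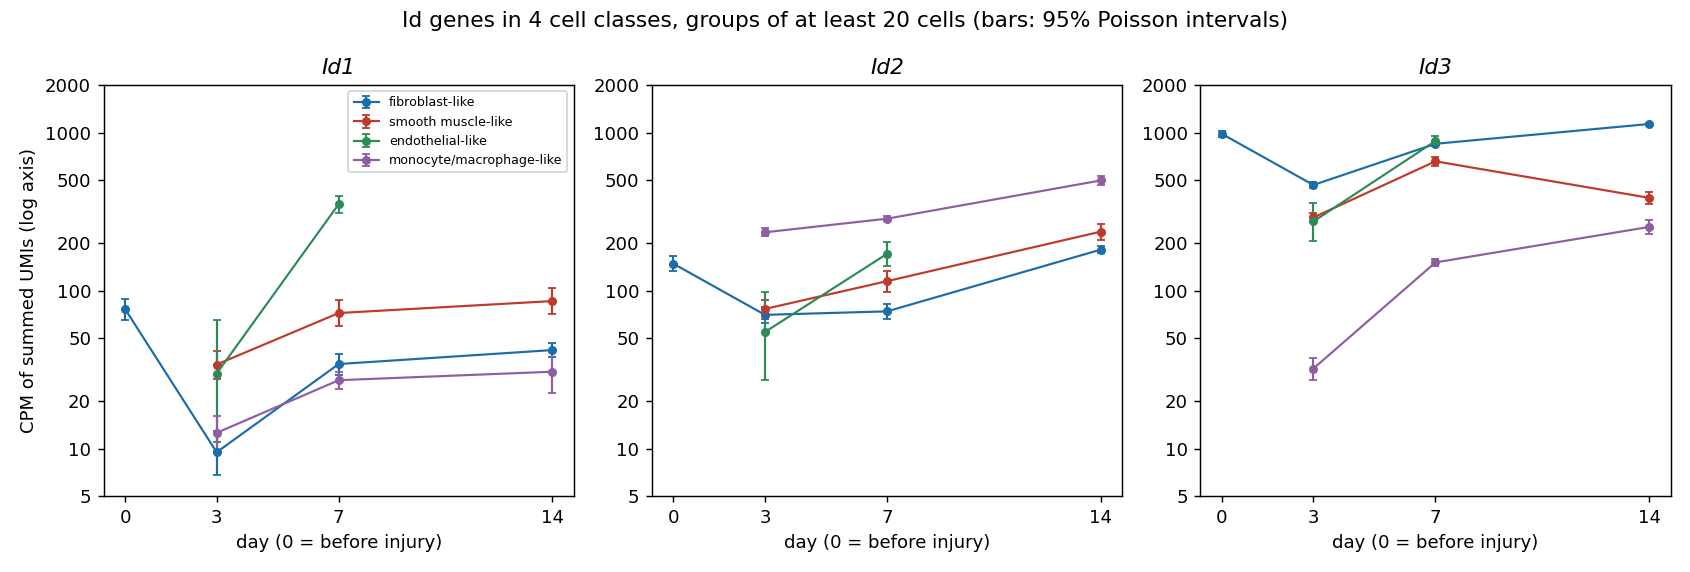
Levels of Id1, Id2 and Id3 (CPM of summed UMIs, log axis) by day in 4 classes (endothelial-like, fibroblast-like, monocyte/macrophage-like, smooth muscle-like), for groups of at least 20 cells. Points are sums over the cells of 1 library and bars are exact 95% Poisson intervals; in all 4 classes day 3 holds the lowest plotted level of each gene, although Id2 in fibroblast-like cells at day 3 and day 7 (70.2 and 73.9 CPM) does not differ beyond counting error, and without cells over 20000 UMIs Id2 is lower at day 7 than at day 3 in fibroblast-like and smooth muscle-like cells.

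In smooth muscle-like cells the levels of all 3 Id genes were lowest at day 3, and 3 of the 6 differences from it were past 2-fold. Id1 was at 34.1, 72.1 and 85.8 CPM at day 3, 7 and 14, Id2 at 76.6, 115 and 236 CPM and Id3 at 290, 658 and 386 CPM. At day 7, 1 of the 9 members that entered was at least 2-fold higher (Id3) and 0 lower, against 1.49% and 0.599% of genes. At day 14, 3 of 9 were higher (Id1, Id2 and Gdf10) and 0 lower, against 1.98% and 3.23%. The others were short of 2-fold (log2 0.90 for Id1 and 0.53 for Id2 at day 7, 0.40 for Id3 at day 14). Without cells over 20000 UMIs, Id2 at day 7 took the opposite sign (log2 -0.17) and Id3 at day 14 was past 2-fold (log2 1.21). The Id1 difference at day 14 was past 2-fold in 9 of 11 alternatives (lowest log2 0.93). The ratios to day 3 were 2.27 (2.06 to 2.49) for Id3 at day 7, and 2.52 (1.90 to 3.35) for Id1 and 3.08 (2.58 to 3.69) for Id2 at day 14.

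Id1 and Id2 were higher at each later day while Id3 was highest at day 7. Fibroblast markers summed to 6186, 14536 and 6971 CPM in the class at day 3, 7 and 14 and smooth muscle markers to 23212, 17126 and 41635 CPM, so fibroblast markers were highest at the day of the highest Id3. In sub-cluster N2 alone (188 of its 198 cells smooth muscle-like, led by Myh11 and Itga8) Id3 was at 284, 751 and 432 CPM, Id1 at 29.7, 68.3 and 83.2 CPM and Id2 at 76.5, 122 and 231 CPM. The order of the days was the same as in the whole class.

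Smad7 was at 148, 134 and 147 CPM in smooth muscle-like cells, with ratios to day 3 of 0.902 (0.758 to 1.07) and 0.992 (0.831 to 1.18) that span 1. Smad6 was at 32.2, 36.1 and 55.2 CPM, above day 3 at day 14 (ratio 1.71, 1.24 to 2.36) and short of 2-fold, a difference that turned sign without cells over 20000 UMIs (log2 -0.09 in place of 0.63). Bmp2 was at 14.3, 24.3 and 21.5 CPM, and Bmp4 was at 27.5, 21.0 and 10.7 CPM. Bmp4 at day 14 had a ratio to day 3 of 0.390 (0.204 to 0.697). Without cells over 20000 UMIs that difference took the opposite sign (log2 0.79 in place of -0.85). Bambi was at 24.5, 24.9 and 39.1 CPM. Gdf10 was at 8.42 CPM on 23 UMIs (10 from 1 cell), 16.4 and 48.3 CPM, with a ratio of 5.73 (3.50 to 9.68) at day 14, and this call ended when cells were clustered at a finer resolution (log2 -0.04 in place of 1.66).

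In endothelial-like cells, which had a median of 1223 UMIs over all days, Id1, Id2, Id3 and Smad7 were higher at day 7 than at day 3. Id1 was at 29.8 CPM (6 UMIs) and 353 CPM (264 UMIs), a ratio of 11.8 (5.36 to 32.5). Id2 was at 54.7 (11 UMIs) and 171 CPM, Id3 at 274 and 884 CPM, and Smad7 at 64.7 (13 UMIs) and 272 CPM. These were 4 of the 6 members that entered, with 0 lower, in a comparison in which 11.1% of genes were higher and 5.68% lower. Bmp4 was at 473 and 585 CPM, with a ratio of 1.24 (0.990 to 1.56) that spans 1, and 63 of its 95 UMIs at day 3 came from 1 cell. Smad6 was at 44.8 and 68.1 CPM (ratio 1.52, 0.742 to 3.52).

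Few cells carry these endothelial sums. At day 3, 2 of the 40 cells held 69.7% of the UMIs and at day 7, 10 of the 55 held 82.6%. Without cells over 20000 UMIs the log2 ratios were 0.53 for Id1, 0.78 for Id2, 0.43 for Id3 and 2.92 for Smad7, so Smad7 alone stayed past 2-fold, on 3 UMIs at day 3 and 57 at day 7, where 38.9% of all genes were then higher and 25.4% lower. The Id2 and Id3 calls each held in 9 of 11 alternatives, with lowest log2 ratios of 0.35 and 0.43. Of the 10 immediate early genes 7 were at least 2-fold higher at day 7 and 0 lower, and their summed level was 3025 CPM at day 3 and 5172 CPM at day 7. Fibroblast markers summed to 766 and 1623 CPM (5 and 10 of 10 with a UMI), mesothelial markers to 49.7 and 293 CPM (1 and 2 of 6), dendritic markers to 39.8 and 156 CPM (4 and 6 of 10) and smooth muscle markers to 1144 and 915 CPM, beside endothelial markers at 3482 and 4525 CPM. Their part in the differences was not tested.

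In monocyte/macrophage-like cells Id3 had the largest log2 ratios of the members that entered (1.93 at day 7 and 2.64 at day 14). It was at 32.1, 151 and 253 CPM at day 3, 7 and 14, with ratios to day 3 of 4.69 (3.97 to 5.58) and 7.87 (6.51 to 9.56). Id2 was at 234, 285 and 498 CPM, Id1 at 12.6, 27.1 and 30.7 CPM and Smad7 at 41.3, 91.3 and 89.4 CPM. Bambi was highest at day 7 (11.8, 42.1 and 18.0 CPM), and Bmp2 at day 14 (5.04, 2.62 and 23.3 CPM on 24, 24 and 35 UMIs). Of the 35 Bmp2 UMIs at day 14, 8 came from 1 cell. At day 7, 2 of the 8 members that entered were at least 2-fold higher (Id3 and Bambi) and 0 lower, against 1.26% and 0.88% of genes, and at day 14, 3 of 6 (Id2, Id3 and Bmp2) and 0, against 2.32% and 2.44%. The Id2 call at day 14 lay close to 2-fold (log2 1.06) and was past it in 7 of 11 alternatives (lowest 0.92). Bmp4 had 1, 15 and 0 UMIs in this class. Fibroblast markers summed to 404, 740 and 775 CPM in the class at day 3, 7 and 14 and erythroid markers to 648, 2068 and 10.7 CPM, beside its own markers at 12246, 11184 and 17176 CPM; their part in the differences was not tested.

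Different macrophage clusters filled the 3 days. A cluster led by Plac8 and Chil3 gave 423 of its 545 cells from day 7, and one led by Ms4a7 and C1qa gave 47, 255 and 106 cells at day 3, 7 and 14. In the Ms4a7 cluster Id3 was at 37.3, 159 and 249 CPM, Id2 at 119, 371 and 545 CPM and Bmp2 at 13.6, 6.08 and 26.6 CPM. In the Plac8 cluster Id3 was at 43.2 CPM at day 3 and 204 at day 7 and Bambi at 2.62 CPM (2 UMIs) and 83.6 CPM (306 UMIs), so most of the Bambi of the class at day 7 came from it. Id3 was higher at day 7 than at day 3 in both of these clusters. A further cluster, which held 240 of the 517 cells of day 3 and 40 cells of day 7, had Id3 at 15.1 CPM (40 UMIs) and 30.2 CPM (22 UMIs). A cluster led by the interferon-induced genes Rsad2 and Ifit1 (30 and 38 cells) went the other way, with Id3 at 127 CPM (48 UMIs) at day 3 and 18.3 CPM (8 UMIs) at day 7. A shallow cluster led by Gm26917 and Lars2 (77, 144 and 37 cells) had Id3 at 34.9, 73.1 and 29.7 CPM (8, 34 and 3 UMIs), so its day 14 level was not above day 3. Of the 10 immediate early genes 6 and 9 were at least 2-fold higher in the class at day 7 and 14, with summed levels of 5815, 12091 and 18480 CPM at day 3, 7 and 14; their part in the Id levels was not tested.

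NK cell-like and T cell-like cells held the highest Id2 of the groups compared and almost no Id1. In NK cell-like cells Id2 was at 1369, 1029 and 844 CPM at day 3, 7 and 14, and in T cell-like cells at 730, 555 and 670 CPM. Dendritic-like cells were at 325, 328 and 318 CPM, with overlapping intervals, but 48 of the 97 UMIs at day 14 came from 1 cell, and B cell-like cells of day 14 were at 24.8 CPM on 2 UMIs. Id1 was at most 4.42 CPM in T cell-like and NK cell-like cells, with 0 UMIs in NK cell-like cells of day 14, which allows up to 20.4 CPM, whereas in neutrophil-like cells it was at 78.6 CPM at day 3 and 105 at day 7. Smad7 was at 134, 324 and 517 CPM in NK cell-like cells at day 3, 7 and 14, with ratios to day 3 of 2.42 (1.72 to 3.50, log2 1.21) and 3.86 (2.57 to 5.89, log2 1.87), where 3.63% and 3.5% of all genes were at least 2-fold higher and 2.26% and 5.44% lower. These cells numbered 58, 159 and 34, and 16 of the 76 UMIs at day 14 came from 1 cell. Both differences kept their sign in 10 alternatives (log2 0.98 to 1.60 and 1.48 to 2.17). In T cell-like cells (64, 366 and 95 cells) Smad7 was at 187, 382 and 483 CPM, with ratios to day 3 of 2.04 (1.60 to 2.64, log2 0.99) and 2.58 (1.97 to 3.41, log2 1.32), where 2.28% and 4.27% of genes were higher and 1.28% and 2.81% lower. The day 14 difference took the opposite sign when the libraries were clustered separately (131 CPM, log2 -0.44), which left 28 T cell-like and 100 NK cell-like cells at that day. The 21 B cell-like cells of day 14 held Id3 at 198 CPM (16 UMIs) and Smad7 at 409 CPM (33 UMIs).

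**Figure D4:**
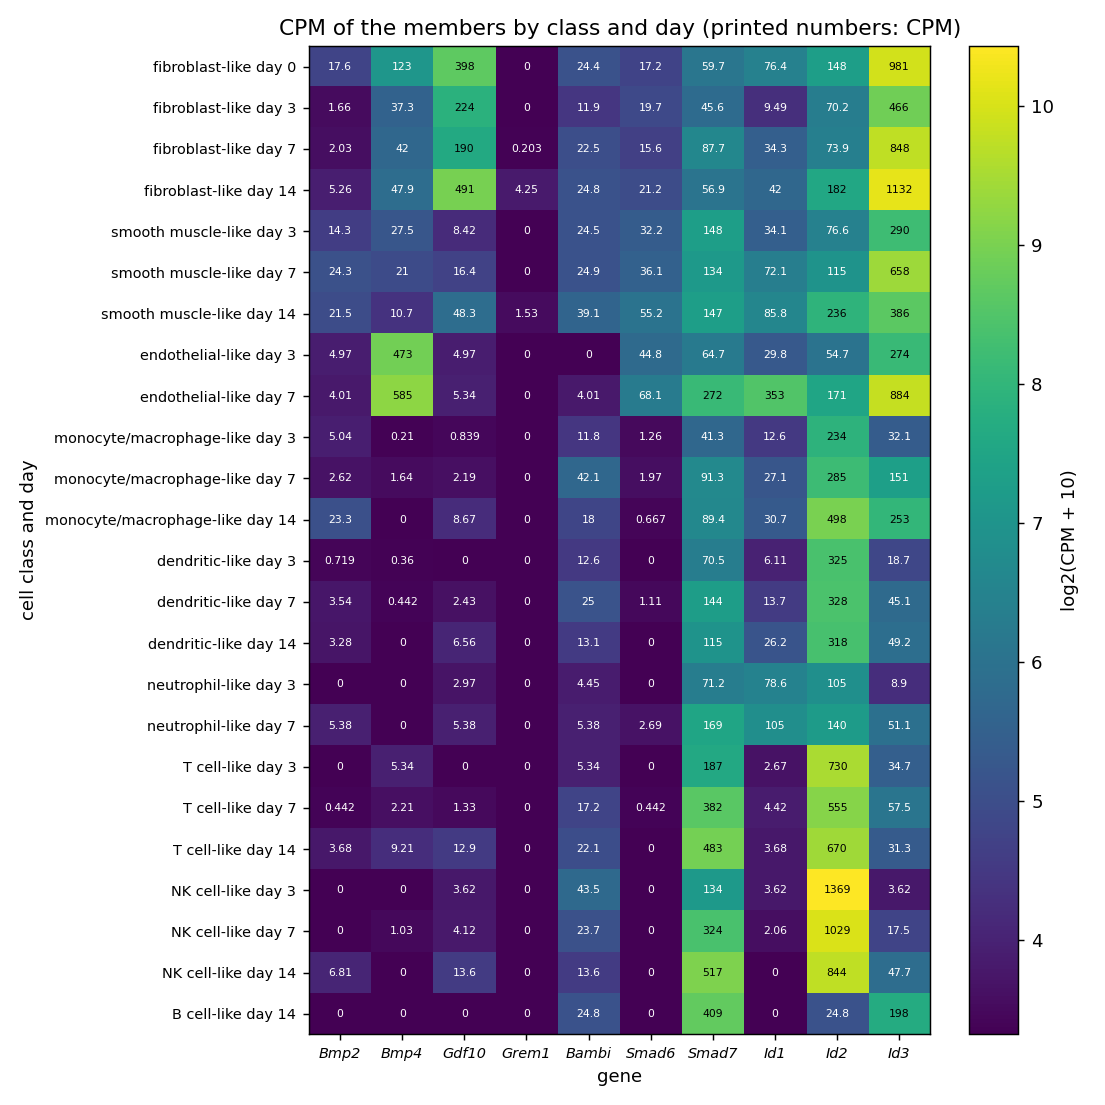
Levels of the 10 genes (columns) in the 24 groups of cell class and day with at least 20 cells (rows). Printed numbers are CPM of summed UMIs and colours are log2(CPM + 10). Gdf10 is highest in the fibroblast-like rows, Id2 in the NK cell-like rows (844 to 1369 CPM) and Id3 in the fibroblast-like rows of day 14 (1132 CPM) and day 0 (981 CPM).

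Over the 24 groups of class and day with at least 20 cells, 7 of the 10 genes had their highest level in a non-immune class and 3 in NK cell-like cells (Id2, Smad7 and Bambi). Id3, Gdf10 and Grem1 were highest in fibroblast-like cells of day 14, Id1, Smad6 and Bmp4 in endothelial-like cells of day 7 and Bmp2 in smooth muscle-like cells of day 7. The margins differed. For Id1 the highest group was at 353 CPM and the next, neutrophil-like cells of day 7, at 105 CPM, with intervals that do not overlap, but 65 of the 264 UMIs of the former came from 1 cell. Without cells over 20000 UMIs, of which neutrophil-like cells had none, it was at 123 CPM (70.3 to 200), which overlaps 105 CPM (74.6 to 143). For Bmp2 the highest group was at 24.3 CPM and the next, monocyte/macrophage-like cells of day 14, at 23.3 CPM, which do not differ beyond counting error, so the count of 7 against 3 rests in part on it. For Bambi the highest group was at 43.5 CPM and the next, monocyte/macrophage-like cells of day 7, at 42.1 CPM, which do not differ beyond counting error, and the former rests on 12 UMIs, of which 7 came from 1 cell. The highest Smad7 levels, 517 and 483 CPM in NK cell-like and T cell-like cells of day 14, likewise overlap. For Smad6, 68.1 CPM in endothelial-like cells of day 7 and 55.2 CPM in smooth muscle-like cells of day 14 also have overlapping intervals.

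By the molecules themselves, fibroblast-like cells held 94.1% of all Gdf10 UMIs, 95.1% of the 41 Grem1 UMIs and 72.5% of Id3 UMIs in the cells kept. Shares over all libraries follow the make-up of each library, and the balance differed by day. For Id3 the fibroblast-like share was 94.1%, 55.2%, 49.7% and 90.7% at day 0, 3, 7 and 14, and for Gdf10 it was between 79.9% and 99.8%. Fibroblast-like cells held 96.1%, 44.4%, 29.2% and 92.0% of Bmp4 UMIs, and endothelial-like cells held 26.8% of 354 at day 3 and 61.9% of 708 at day 7. At day 0 and day 14 there were too few endothelial-like cells (6 and 18) for a share to be described. Of Bmp2, fibroblast-like cells held 39 of 51 UMIs at day 0, smooth muscle-like cells 39 of 76 at day 3 and 37 of 97 at day 7, and fibroblast-like cells 47 of 114 at day 14, so no class held most of it throughout. Of Smad6, fibroblast-like cells held 90.5%, 42.3%, 34.8% and 71.2% on the 4 days and smooth muscle-like cells 44.9% at day 3. Monocyte/macrophage-like cells held 31.8% of Id2 UMIs at day 3 and 35.3% at day 7, and 50.1% of Bambi UMIs at day 7.

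The genes whose levels followed a member most closely over these 24 groups were found among 7412 genes for the 4 members with the widest range. The groups share 4 libraries and differ in depth, and the correlations (Pearson's r of log2(CPM + 10)) are descriptions. Gdf10 was followed by Cpxm1, Comp and Fbln1 (r = 0.98), Entpd2 and 3632451O06Rik (0.97). Bmp4 was followed by Jcad and Tspan12 (0.96), Cavin2 and Arhgap29 (0.95) and Afap1l2 (0.94). Id3 was followed by P3h3, Smo and Ephx1 (0.92), Gkap1 (0.91) and Nfix (0.90), and Id2 by Padi2 (0.90), Ttc5 and Gramd1b (0.86), Hs3st3b1 and Klrk1 (0.85). Between members, Smad6 with Bmp4 (0.82) and Smad6 with Id3 (0.79) were alike, and Id2 and Id3 ran opposite (-0.59).

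**Figure D5:**
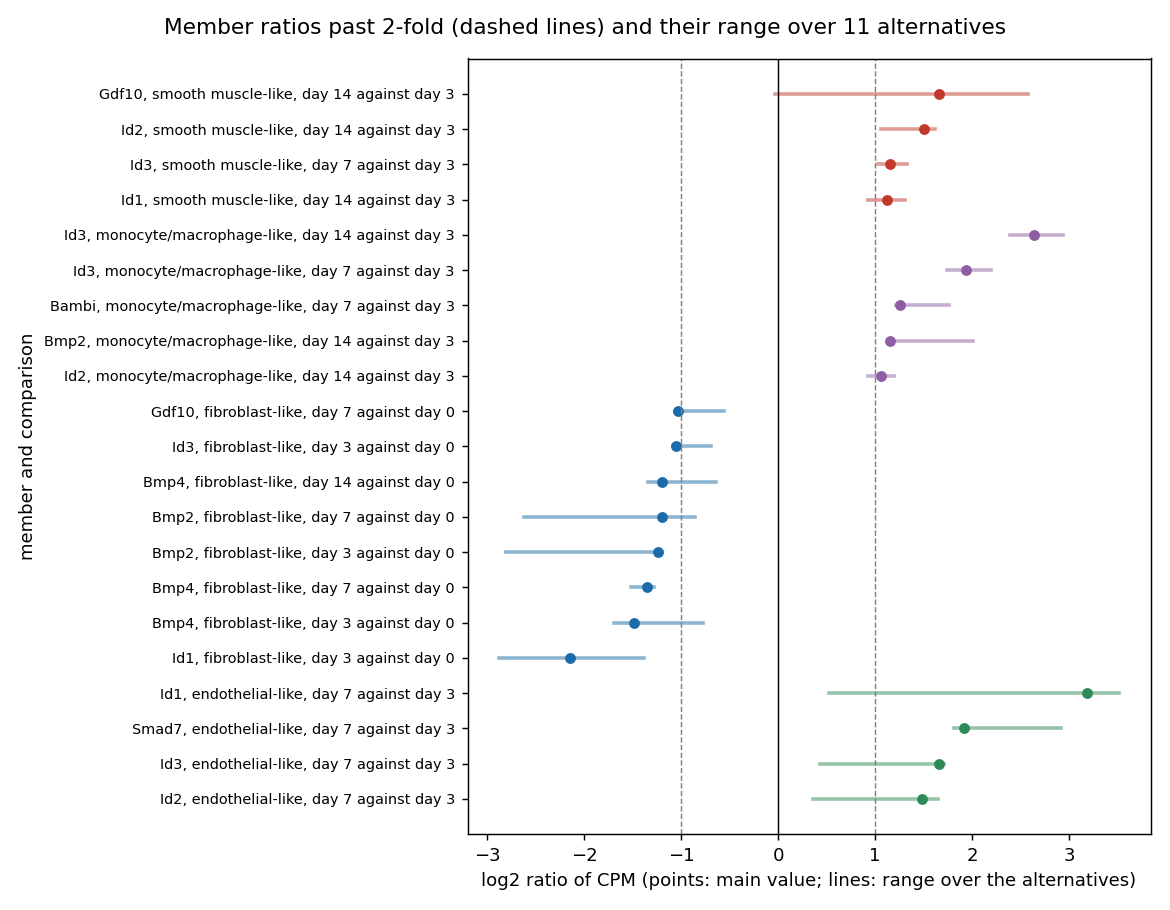
The 21 differences between days past 2-fold in the monocyte/macrophage-like class and the fibroblast-like, endothelial-like and smooth muscle-like classes (rows), as log2 ratios of CPM with 10 CPM added (horizontal axis). Points are the values reported and lines the range over 11 alternative ways of processing; dashed lines mark 2-fold, and the lines for Id3 in monocyte/macrophage-like cells stay clear of them, whereas those for Id1, Id2 and Id3 in endothelial-like cells cross below 2-fold.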

How the data were processed

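The authors deposited raw UMI counts per gene and barcode for each library; the file headers name Cell Ranger 3.0.2, and the mouse genome build is not given in usable form in the sources used here. These counts were used unchanged. The members and lists were chosen with earlier results of these data known. Barcodes with at least 200 genes and at most 20% mitochondrial UMIs were kept; 453 failed, and 102 were marked as likely doublets at a rate of 0.8% per 1000 barcodes; 20 of the failed were also marked as doublets or shallow copies. Dropping the shallow copies of shared barcodes was decided after the data were seen. Cells of all libraries were clustered together (scanpy 1.11.5, leidenalg 0.10.2, 2000 variable genes without pathway genes, 30 components, resolution 1) and classes named from at least 3 fixed markers; 593 cells (10.96%) stayed unnamed. Classes rebuilt in this way may differ from those of the study. UMIs were then summed by class and day. Levels are CPM of summed UMIs, with exact intervals (scipy 1.17.1). Cells are not replicates, so no p-value was computed. TMM scaling (edgeR 4.0.16) was an alternative. All 10 genes are named. Of each context list at most the 3 genes with the largest ratio in fibroblast-like cells are named, among those past 2-fold with at least 50 CPM on the higher side, and for likeness the 5 closest genes reaching 50 CPM. The ratio and call steps were tested on simulated data with independently drawn UMIs, which does not cover UMIs that come from the same cell. An item withheld here is not reported.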

Additional observations from a re-analysis of the deposited data

How the results depend on the processing

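Of the 21 differences between days past 2-fold in the monocyte/macrophage-like class and the fibroblast-like, endothelial-like and smooth muscle-like classes, all kept their sign under every alternative except Gdf10 in smooth muscle-like cells at day 14, whose log2 ratio was -0.0356 at resolution 2. The number still past 2-fold was 21 with 1 CPM added, with no UMI minimum, with doublets or shallow copies kept, 20 at resolution 0.5, 19 with TMM scaling and with the stricter cell filter, 18 with each library clustered on its own, 17 when CPM was averaged over cells and at resolution 2, and 13 without cells over 20000 UMIs. Leaving out cells over 20000 UMIs thus changed the most calls. It also left fewer cells and molecules, and the cause of the changes was not tested. The share of all genes past 2-fold moved with the setting too and is given with each count. Without those cells the lower members in fibroblast-like cells numbered 2, 1 and 0 at day 3, 7 and 14 (7.0%, 7.65% and 1.26% of all genes), the higher ones 1 at day 7 (Smad7, 8.5%), and the higher members 5 in smooth muscle-like cells at day 14 (5.74%) and 1 in endothelial-like cells (38.9%). With CPM averaged over cells, 1 member (Smad7) was higher at day 7 (8.18%) and 0 lower at day 14 (1.6%) in fibroblast-like cells, and 2 were higher in smooth muscle-like cells at day 7 (5.19%). With 1 CPM added, which lets low genes pass, 1 was higher (7.78%) and 2 lower (3.72%) in fibroblast-like cells at day 14, 2 higher at day 7 (4.52%) and 1 lower at day 14 (8.54%) in smooth muscle-like cells, and 4 and 5 higher in monocyte/macrophage-like cells at day 7 and 14 (4.39% and 5.18%). In fibroblast-like cells Id2 at day 3 and Id1 at day 7 were also past 2-fold lower with 1 CPM added. Their lowest log2 ratios over the 11 alternatives were -1.09 and -1.13. At resolution 2 smooth muscle-like cells had 1 lower at day 7 (0.554%) and 1 higher at day 14 (3.38%), and 1 was lower at day 14 with each library clustered on its own (3.64%) or the stricter filter (3.8%). Smad7 in T cell-like and NK cell-like cells was run under 10 of the 11 alternatives, without TMM scaling, chosen after seeing the data; its T cell-like difference at day 14 turned sign with each library clustered on its own (log2 -0.44). No alternative was run on the differences between or within sub-clusters. No paired analysis was possible because each day is 1 library. Levels under about 10 CPM rest on few molecules at these depths.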
